A study of Mus musculus with 12 samples.

Results

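The 8 genes described here, Cyp7a1, Cyp8b1, Cyp7b1, Cyp27a1, Baat, Nr0b2, Nr1h4 and Fgfr4, make and conjugate bile acids in the liver or restrain their synthesis. They were taken as every probe set that the platform annotation pairs with exactly 1 of these symbols, which gave 15 probe sets among 22626 tested probe sets and 8 genes among 12393. Whole-liver RNA was hybridised to 12 Affymetrix 430A arrays, in 4 groups of 3 arrays, with the RNA of 3 male C57BL/6 mice aged 6 to 8 weeks pooled on each. The groups were POR-null mice given quercetin, POR-null mice on the control diet, wild-type mice given quercetin and wild-type mice on the control diet. All mice spent 14 days on a soya-free powdered diet, after which the quercetin groups received the same diet with 6.2 g of quercetin per kg, or 7 mg per mouse, for 24 hours. POR-null mice lack cytochrome P450 reductase, the flavoprotein that passes electrons to the microsomal P450 enzymes, and quercetin is a plant flavonol. The labels do not name the promoter or recombinase behind the deletion, nor the cells it covers. Por itself was not analysed here, and no check of the genotype by its level was made.

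Bile acids are made from cholesterol in hepatocytes. The classic route starts with Cyp7a1, the rate-limiting microsomal 7α-hydroxylase, and branches at Cyp8b1, the microsomal sterol 12α-hydroxylase that sets the share of cholic acid; the alternative route uses Cyp27a1, a mitochondrial sterol hydroxylase supplied with electrons by ferredoxin and its own reductase, and Cyp7b1, the microsomal oxysterol 7α-hydroxylase. Baat then joins the acids to taurine or glycine. Bile acids returning to the liver bind the nuclear receptor FXR, encoded by Nr1h4, which induces SHP, encoded by Nr0b2, a receptor without a DNA-binding domain that represses Cyp7a1 and Cyp8b1, while FGF15 from the ileum acts through Fgfr4 on hepatocytes to the same end.

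Probe set values are on a log2 scale, so a difference of 1 is a doubling, and values of different probe sets were not set against each other because each has its own affinity. Over all 12 arrays 13 of the 15 probe sets lay above 5.95, the median of all probe set means; the exceptions were the Fgfr4 probe sets 1427776_a_at at 4.20 and 1427845_at at 4.75. Array medians lay between 5.93 and 5.99, and arrays of the same group correlated at 0.988 to 0.993 across probe sets. On the first principal component, which held 33% of the variance, POR-null control array 3 lay at -0.113 and the other POR-null arrays between -23 and -7.88, against 6.11 to 23.7 in wild-type arrays. On the second component, with 12.4%, wild-type control arrays 2 and 3 lay at 17.7 and 16.2, while wild-type control array 1 lay at -12.1. Hepatocyte markers were high under the liver label: the mean of 9 hepatocyte genes lay at 12.78 to 12.98 in POR-null quercetin arrays, 12.80 to 12.95 in POR-null control arrays, 12.94 to 13.00 in wild-type quercetin arrays and 12.84 to 12.93 in wild-type control arrays. All 7 measured cholangiocyte markers lay under the median of all probe sets in every group. In RNA of whole liver, fewer cells of a type and less RNA per cell cannot be told apart.

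Cyp7a1 was higher in POR-null than in wild-type liver by about the same amount on both diets, and the difference was the largest among the 15 probe sets. Probe set 1422100_at read 10.95, 10.84 and 10.71 in POR-null quercetin arrays, 10.82, 10.09 and 9.91 in POR-null control arrays, 8.52, 8.07 and 8.08 in wild-type quercetin arrays and 7.90, 7.47 and 8.16 in wild-type control arrays. Probe set 1438743_at, at another place in the same gene, read 11.73, 11.64 and 11.56 in POR-null quercetin arrays, 11.83, 11.28 and 10.46 in POR-null control arrays, 9.37, 8.98 and 9.54 in wild-type quercetin arrays and 8.94, 8.58 and 9.47 in wild-type control arrays. With both probe sets, all 6 POR-null arrays stood above all 6 wild-type arrays. In the order of the group means, POR-null quercetin came first, then POR-null control, wild-type quercetin and wild-type control. The arrays of POR-null quercetin and POR-null control overlapped in this order, as did those of wild-type quercetin and wild-type control, and the gap lay between the genotypes.

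With limma fitted over all probe sets, Cyp7a1 was 5.37-fold higher in POR-null control than in wild-type control liver by probe set 1422100_at (log2 difference 2.42 ± 0.21 SE, 95% confidence interval 1.97 to 2.88, adjusted p = 0.000133) and 4.58-fold higher by 1438743_at (2.19 ± 0.27, adjusted p = 0.00249). On the quercetin diet, in arrays that share none with that comparison, the limma fit gave 6.11-fold (2.61 ± 0.21, adjusted p = 5e-05) and 5.08-fold (2.34 ± 0.27, adjusted p = 0.000807). The probe sets correlated at 0.985 over the 12 arrays, which share the 2 genotypes that set them apart. Leaving out any 1 array kept both calls on both diets, with log2 differences from 1.87 to 2.76. POR-null control array 3, the POR-null array closest to wild type on the first component, also held the lowest Cyp7a1 value among POR-null arrays with both probe sets.

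**Figure D1:**
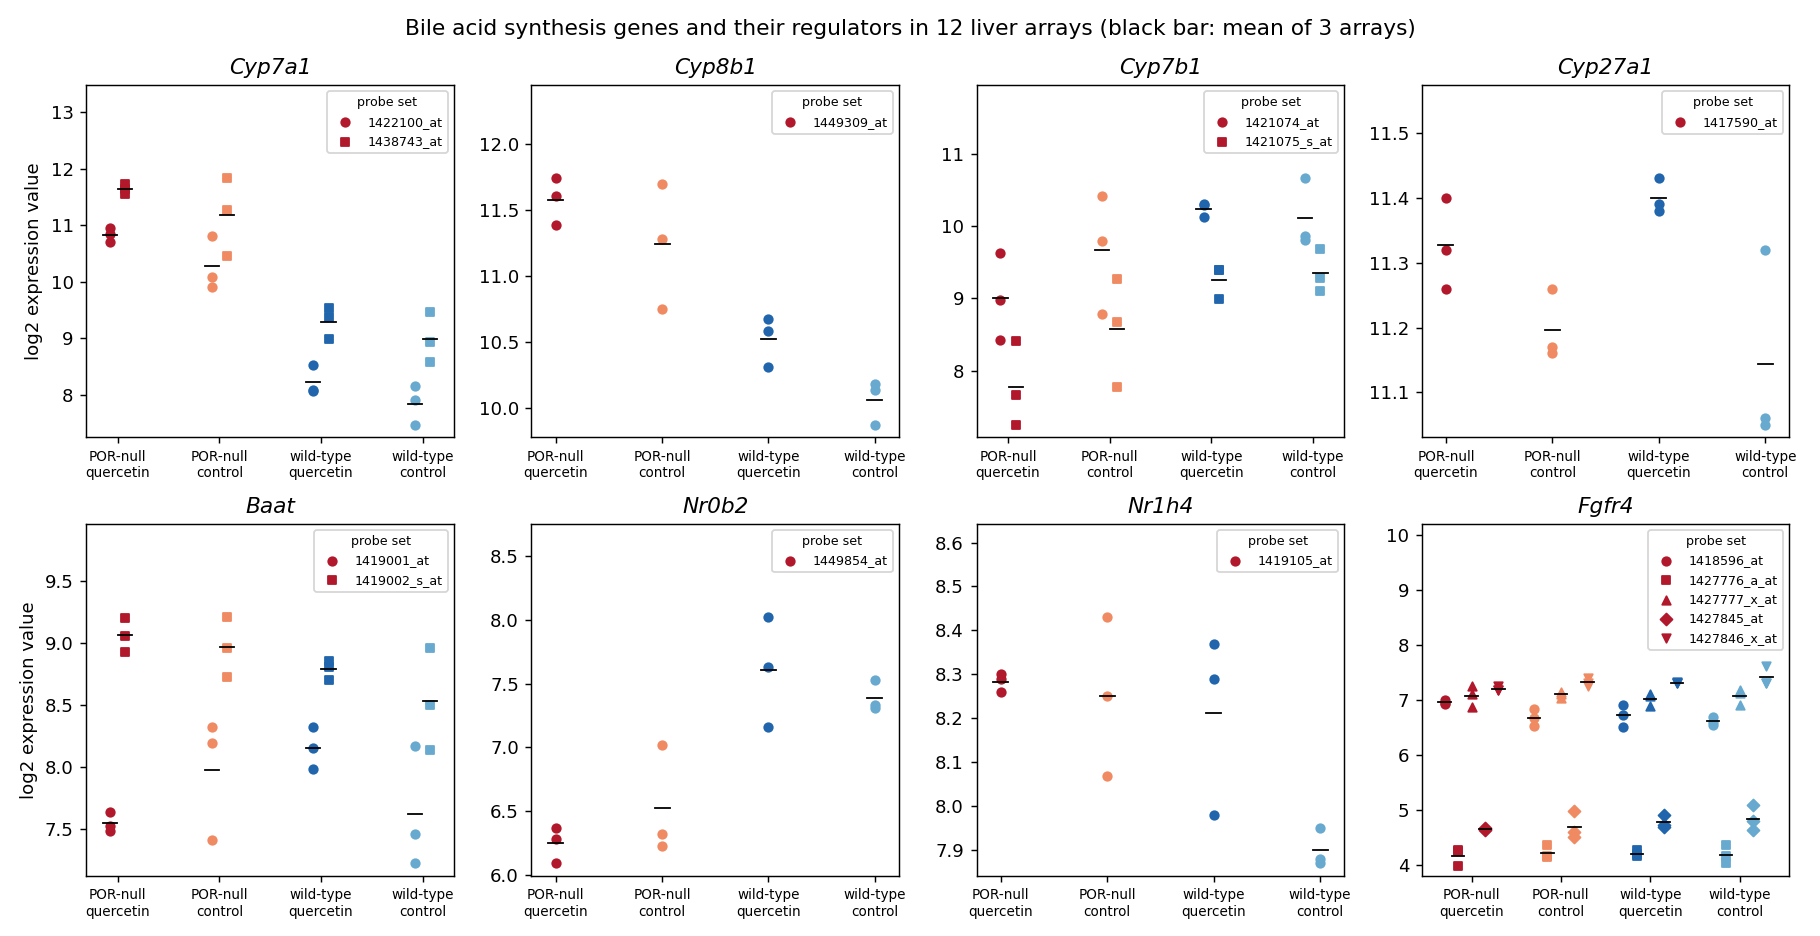
Log2 expression value (y axis) of every probe set of the 8 genes in each of the 12 arrays, by group (x axis), with points for single arrays, marker shapes for probe sets and black bars for the mean of 3 arrays. The 6 POR-null arrays lie above the 6 wild-type arrays for Cyp7a1 and Cyp8b1 and below them for Nr0b2, while Cyp27a1 stays between 11.05 and 11.43.

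Cyp8b1 differed in the same direction as Cyp7a1 and by less. Its promoter is shown because it holds overlapping matches to the letters bound by HNF4α and by NR5A2, the nuclear receptors through which Cyp8b1 is driven and SHP acts. Nr0b2's own promoter, which also holds an NR5A2 match, is shown with it. Both are the 250 bases before the annotated start in RefSeq, build GRCm38.p6, written 5′ to 3′ on the strand of the gene, at chr9:121916306-121916555 on the minus strand for Cyp8b1 and chr4:133553126-133553375 on the plus strand for Nr0b2. Capitals mark motif matches.
Cyp8b1: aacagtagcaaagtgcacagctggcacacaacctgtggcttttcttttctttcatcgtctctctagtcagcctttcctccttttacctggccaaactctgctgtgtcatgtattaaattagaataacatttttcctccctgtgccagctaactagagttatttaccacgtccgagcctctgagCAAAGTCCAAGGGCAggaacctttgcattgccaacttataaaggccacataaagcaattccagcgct
Nr0b2: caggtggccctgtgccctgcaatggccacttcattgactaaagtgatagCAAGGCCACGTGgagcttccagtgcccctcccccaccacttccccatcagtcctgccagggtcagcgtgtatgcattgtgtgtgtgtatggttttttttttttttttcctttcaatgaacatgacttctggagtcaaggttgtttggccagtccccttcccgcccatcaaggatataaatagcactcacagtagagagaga
The motifs were searched on both strands of the window reaching 250 bases before and 50 bases after the start. In Cyp8b1 the HNF4α letters CAAAGNCCA matched as CAAAGTCCA at position -67 and the NR5A2 letters CAAGGNCA matched as CAAGGGCA at position -60, sharing 2 bases. In Nr0b2 the NR5A2 letters matched as CAAGGCCA at -201 and the E-box CACGTG matched at -195, also sharing 2 bases. Among all 32851 windows of this length, 1.98% held CAAAGNCCA, 6.71% held CAAGGNCA and 7.15% held CACGTG. Windows were found for 5 of the 8 genes, and those of Cyp27a1, Nr1h4 and Fgfr4 held none of these letters; Cyp7a1, Cyp7b1 and Baat had no entry. A match of letters is a description of the sequence and no measurement of binding.

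Cyp8b1 probe set 1449309_at read 11.61, 11.74 and 11.39 in POR-null quercetin arrays, 11.70, 11.28 and 10.75 in POR-null control arrays, 10.67, 10.31 and 10.58 in wild-type quercetin arrays and 9.87, 10.18 and 10.13 in wild-type control arrays. Every POR-null array stood above every wild-type array, although the lowest POR-null control array and the highest wild-type quercetin array were close. The order of the group means was that of Cyp7a1, with the arrays of both POR-null groups overlapping and those of both wild-type groups apart from each other. Cyp8b1 was 2.26-fold higher in POR-null control than in wild-type control liver (log2 difference 1.18 ± 0.18, interval 0.79 to 1.57, limma adjusted p = 0.0112) and 2.08-fold higher in POR-null quercetin than in wild-type quercetin liver (1.06 ± 0.18, interval 0.67 to 1.45, limma adjusted p = 0.00892). The control-diet call was lost when limma was fitted to those 2 groups alone (1.18, adjusted p = 0.0727), and when wild-type control arrays 2 and 3 were both left out (1.37, adjusted p = 0.118), which leaves 1 array in that group. On the quercetin diet it was lost by a narrow margin without wild-type quercetin array 2 (0.96, limma adjusted p = 0.050003).

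In the alternative route Cyp7b1 lay lower in POR-null liver, with a call on the quercetin diet, and Cyp27a1 passed on neither diet. Cyp7b1, which in mice is expressed more strongly in male than in female liver, read 8.42, 8.98 and 9.63 in POR-null quercetin arrays, 8.79, 9.80 and 10.42 in POR-null control arrays, 10.30, 10.29 and 10.13 in wild-type quercetin arrays and 10.66, 9.81 and 9.87 in wild-type control arrays with probe set 1421074_at. Probe set 1421075_s_at read 7.25, 7.66 and 8.41 in POR-null quercetin arrays, 7.77, 8.67 and 9.27 in POR-null control arrays, 9.39, 9.39 and 8.99 in wild-type quercetin arrays and 9.68, 9.10 and 9.28 in wild-type control arrays. POR-null arrays were spread widely within each diet, with array 3 of both POR-null groups the highest, and POR-null control overlapped wild-type control. On the quercetin diet no POR-null array reached the lowest wild-type array. Cyp7b1 fell 2.79-fold there by 1421075_s_at (log2 difference -1.48 ± 0.32, limma adjusted p = 0.0262), while 1421074_at, at -1.23 ± 0.35, missed the threshold (adjusted p = 0.0809).

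On the control diet Cyp7b1 differed by -0.78 ± 0.32 (interval -1.47 to -0.10, limma adjusted p = 0.246) and -0.44 ± 0.35 (interval -1.19 to 0.30, adjusted p = 0.582), and neither passed. Averaged over both diets, 6 arrays against 6, the probe sets gave -1.13 ± 0.23 (limma adjusted p = 0.00755) and -0.84 ± 0.25 (adjusted p = 0.0541). The quercetin-diet call of 1421075_s_at was lost without POR-null quercetin array 1 (-1.22, adjusted p = 0.133) or 2 (-1.42, adjusted p = 0.0961), without wild-type quercetin array 1 (-1.41, adjusted p = 0.0971) or 2 (-1.42, adjusted p = 0.11), and with a robust variance prior (adjusted p = 0.107). Without POR-null quercetin array 3 the other probe set passed too (-1.54, limma adjusted p = 0.0493). The probe sets correlated at 0.967 over the 12 arrays.

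Cyp27a1, the mitochondrial member, read 11.26, 11.32 and 11.40 in POR-null quercetin arrays, 11.26, 11.17 and 11.16 in POR-null control arrays, 11.39, 11.38 and 11.43 in wild-type quercetin arrays and 11.32, 11.05 and 11.06 in wild-type control arrays. Genotypes overlapped on both diets. The log2 difference between POR-null and wild type was 0.05 ± 0.09 on the control diet (interval -0.13 to 0.24, limma adjusted p = 0.809) and -0.07 ± 0.09 on the quercetin diet (interval -0.25 to 0.12, adjusted p = 0.737). These were the narrowest intervals among the probe sets of the synthesis enzymes, and both lie within 0.25 of 0 on the log2 scale.

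The probe sets of Baat, the conjugating enzyme, disagreed. Probe set 1419001_at read 7.48, 7.52 and 7.64 in POR-null quercetin arrays, 8.32, 8.19 and 7.41 in POR-null control arrays, 8.15, 7.98 and 8.32 in wild-type quercetin arrays and 8.17, 7.22 and 7.46 in wild-type control arrays. Probe set 1419002_s_at read 8.93, 9.20 and 9.06 in POR-null quercetin arrays, 9.21, 8.96 and 8.73 in POR-null control arrays, 8.86, 8.81 and 8.70 in wild-type quercetin arrays and 8.50, 8.96 and 8.14 in wild-type control arrays. Their correlation over the 12 arrays was 0.062, against 0.985 and 0.967 for the pairs of Cyp7a1 and Cyp7b1. On the quercetin diet they pointed in opposite directions between the genotypes, at -0.61 ± 0.23 for 1419001_at and 0.27 ± 0.17 for 1419002_s_at, with limma adjusted p-values of 0.194 and 0.432. On the control diet they gave 0.36 ± 0.23 and 0.43 ± 0.17, with limma adjusted p-values of 0.49 and 0.219. No direction is given for Baat.

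Among the repressors, Nr0b2 lay lower in POR-null liver, the opposite direction to Cyp7a1 and Cyp8b1. Probe set 1449854_at read 6.28, 6.09 and 6.37 in POR-null quercetin arrays, 6.23, 6.32 and 7.02 in POR-null control arrays, 7.16, 8.02 and 7.63 in wild-type quercetin arrays and 7.33, 7.53 and 7.31 in wild-type control arrays. All 6 POR-null arrays stood below all 6 wild-type arrays, with POR-null control array 3 the closest to them; the wild-type groups overlapped, and so did the POR-null groups. Nr0b2 fell 2.56-fold on the quercetin diet (log2 difference -1.35 ± 0.21, interval -1.80 to -0.91, limma adjusted p = 0.00544) and kept that call without any 1 array. On the control diet the difference was -0.87 ± 0.21 (interval -1.31 to -0.42) and missed the threshold (limma adjusted p = 0.0606). Without POR-null control array 3 it passed at -1.12 (limma adjusted p = 0.0074). Averaged over both diets it was -1.11 ± 0.15 (limma adjusted p = 0.000666).

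Nr0b2 is also expressed in exocrine pancreas, and transcripts of pancreatic acinar genes were measured in these samples. The mean of 9 pancreatic acinar genes was 7.06, 7.74 and 9.98 in POR-null quercetin arrays, 6.74, 7.47 and 8.50 in POR-null control arrays, 6.44, 6.91 and 8.43 in wild-type quercetin arrays and 7.38, 8.70 and 6.82 in wild-type control arrays. This level was highest in POR-null quercetin array 3, and its part in the Nr0b2 difference was not tested.

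Neither of the receptors that set the repression in motion passed the threshold between the genotypes on either diet. Nr1h4 probe set 1419105_at read 8.26, 8.30 and 8.29 in POR-null quercetin arrays, 8.43, 8.25 and 8.07 in POR-null control arrays, 8.37, 7.98 and 8.29 in wild-type quercetin arrays and 7.88, 7.87 and 7.95 in wild-type control arrays. The wild-type control arrays were the lowest of all, below every POR-null array, and the other 3 groups overlapped. The differences between POR-null and wild type were 0.35 ± 0.11 on the control diet (interval 0.11 to 0.59, limma adjusted p = 0.143) and 0.07 ± 0.11 on the quercetin diet (interval -0.17 to 0.31, adjusted p = 0.794).

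Fgfr4 had 5 probe sets. The suffix x_at marks probes that may bind other transcripts, which applies to 1427777_x_at and 1427846_x_at. Probe set 1418596_at, without such a suffix and above the overall median, read 7.01, 6.95 and 6.94 in POR-null quercetin arrays, 6.67, 6.54 and 6.84 in POR-null control arrays, 6.92, 6.74 and 6.52 in wild-type quercetin arrays and 6.69, 6.60 and 6.56 in wild-type control arrays. Its POR-null quercetin arrays were the highest of the 4 groups, by a small margin over 1 wild-type quercetin array. Its log2 difference was 0.24 ± 0.11 on the quercetin diet (interval 0 to 0.48, limma adjusted p = 0.295) and 0.07 ± 0.11 on the control diet (interval -0.17 to 0.30, adjusted p = 0.819). The other 4 probe sets differed between genotypes by -0.15 to 0.05 over both diets, and none passed. Pairs of Fgfr4 probe sets correlated from -0.5 to 0.73 over the 12 arrays.

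Counted over the list, 3 of the 15 probe sets passed on the control diet, all higher in POR-null liver and belonging to Cyp7a1 and Cyp8b1, where 1.16% of all probe sets passed, 0.822% higher and 0.336% lower. On the quercetin diet 5 passed, 3 higher and 2 lower, belonging to 4 genes, where 2.33% of all probe sets passed, 1.75% higher and 0.579% lower. The 3 of the control diet were among these 5. Averaged over both diets 5 passed, 3 higher and 2 lower, where 7.58% of all probe sets did, 4.88% higher and 2.7% lower. Groups did not overlap for 5 of the 15 probe sets on the control diet and for 11 on the quercetin diet, against 17.3% and 25% of all probe sets. The median size of the difference was 0.36 for the 15 probe sets on the control diet and 0.27 on the quercetin diet, against 0.11 for all probe sets on either diet. The members were chosen with earlier results of these data known, and most of their probe sets are brighter than the median probe set. Probe sets of the same gene were counted separately, so these comparisons with all probe sets are a description and no test of the list. The difference between the diets in the genotype effect was itself tested, as the interaction, and 0 of the 15 probe sets passed (lowest limma adjusted p = 0.803), so a member called on 1 diet alone is not shown to differ between diets.

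**Figure D2:**
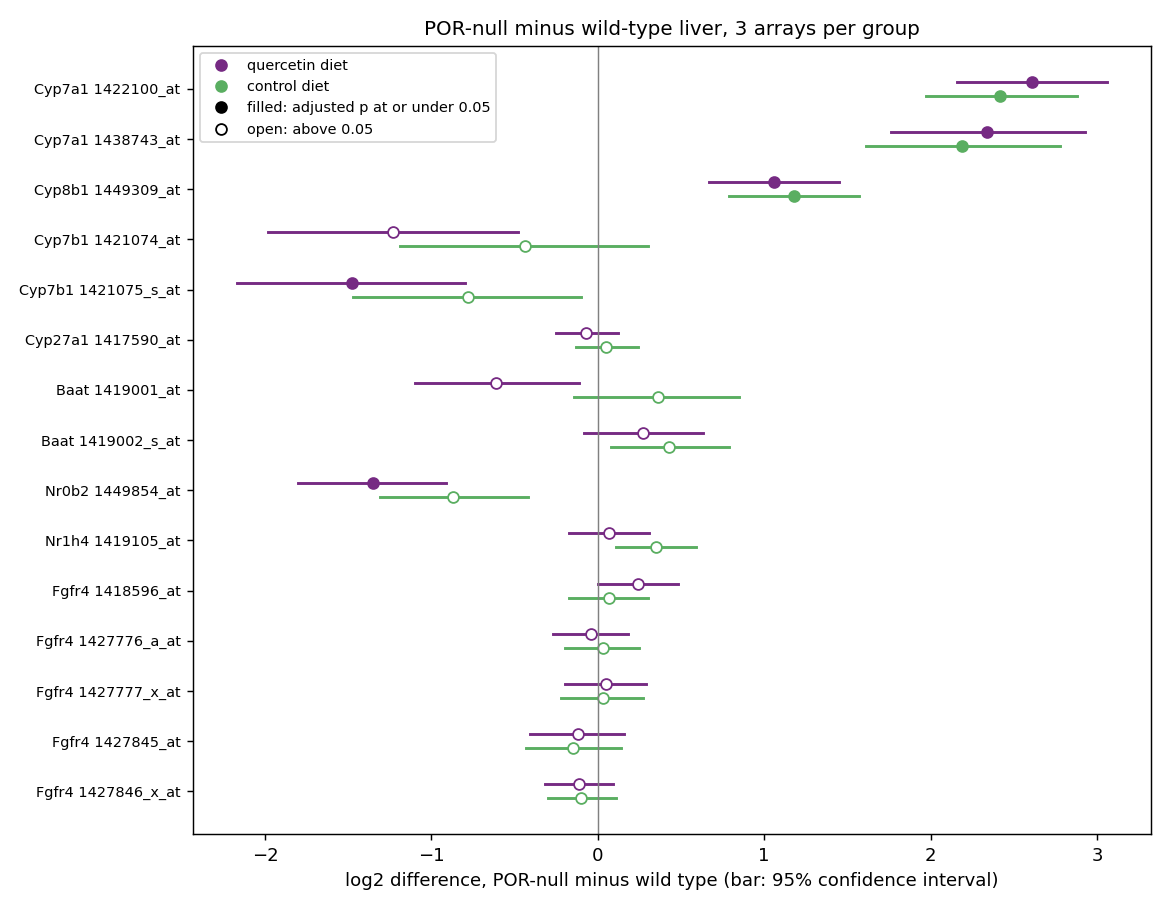
Log2 difference between POR-null and wild-type liver (x axis) for each of the 15 probe sets (y axis), with 95% confidence intervals as bars; purple stands for the quercetin diet, green for the control diet, and filled points have a limma adjusted p at or under 0.05. Cyp7a1 lies between 2.19 and 2.61 and Cyp8b1 between 1.06 and 1.18 on both diets, Cyp7b1 and Nr0b2 lie below 0, and Cyp27a1 and Fgfr4 lie near 0.

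Quercetin given for 24 hours changed none of the 8 genes by the test. In POR-null liver 0 of the 15 probe sets passed (lowest limma adjusted p = 0.657), in wild-type liver 0 passed (lowest 0.467), and 0% of all 22626 probe sets passed in either genotype. At an unadjusted p under 0.05 there were 3 of the 15 in POR-null liver and 4 in wild-type liver, against 6.99% and 8.58% of all probe sets, and 1 for the interaction against 6.17%. Quercetin and control arrays did not overlap for 3 of the 15 probe sets in POR-null liver and 3 in wild-type liver, against 14.1% and 11.8% of all.

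Point estimates for the synthesis enzymes were above 0 in several cases, with wide intervals. Cyp7a1 differed between quercetin and control diet by 0.56 ± 0.21 (interval 0.11 to 1.02) and 0.45 ± 0.27 (interval -0.14 to 1.03) in POR-null liver, and by 0.38 ± 0.21 (interval -0.08 to 0.83) and 0.30 ± 0.27 (interval -0.28 to 0.88) in wild-type liver. Cyp8b1 differed by 0.34 ± 0.18 in POR-null liver (interval -0.05 to 0.73) and 0.46 ± 0.18 in wild-type liver (interval 0.07 to 0.85). Increases of up to about 1 on the log2 scale in Cyp7a1 thus lie within the intervals. Cyp27a1 differed by 0.13 ± 0.09 in POR-null liver and 0.25 ± 0.09 in wild-type liver, where the limma adjusted p of 0.467 was the lowest of the 15. Cyp7b1 differed by -0.66 ± 0.35 and -0.80 ± 0.32 in POR-null liver and by 0.13 ± 0.35 and -0.10 ± 0.32 in wild-type liver. Nr0b2 differed by -0.27 ± 0.21 in POR-null liver and 0.22 ± 0.21 in wild-type liver, and Nr1h4 by 0.03 ± 0.11 and 0.31 ± 0.11. The single member with an unadjusted p under 0.05 for the interaction was Baat probe set 1419001_at, at -0.96 ± 0.33 (unadjusted p = 0.0103, limma adjusted p = 0.803), which its partner 1419002_s_at did not share at -0.16 ± 0.24.

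**Figure D3:**
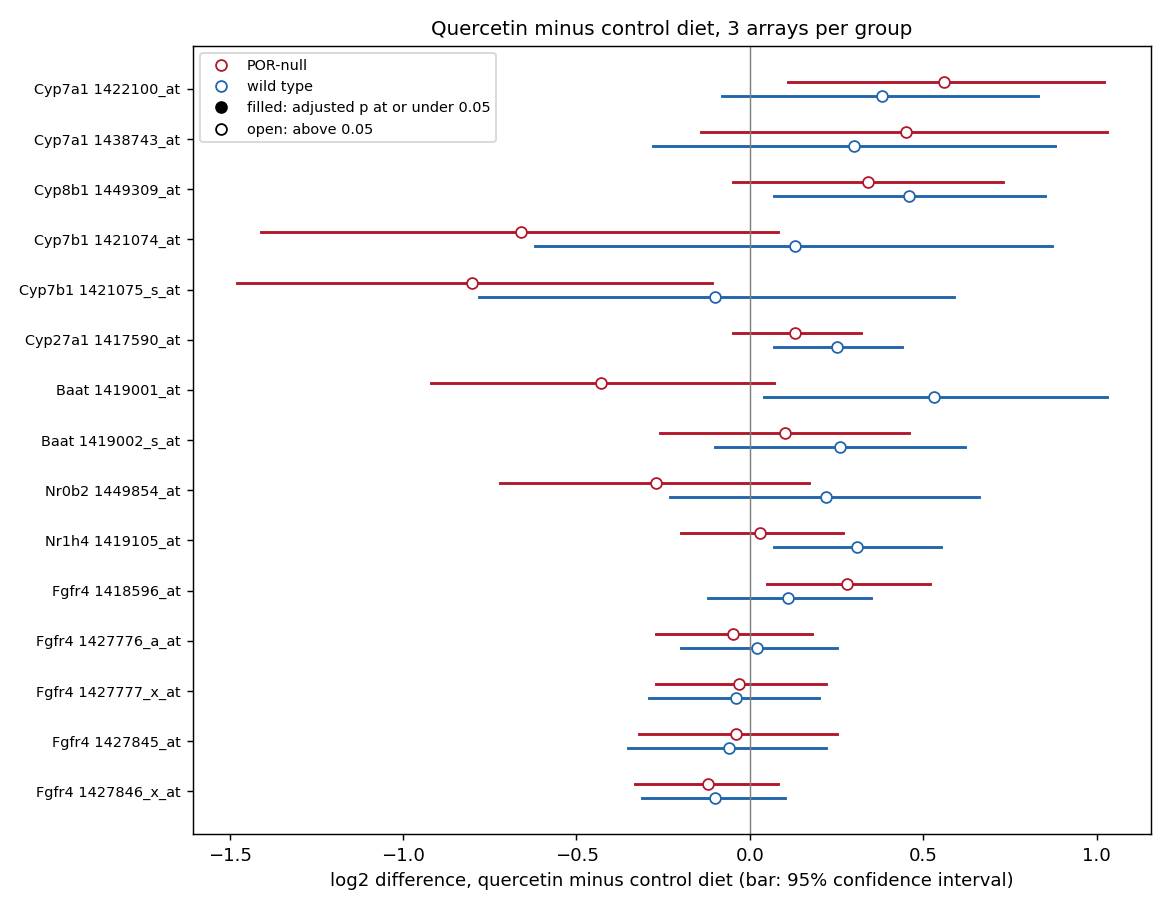
Log2 difference between quercetin and control diet (x axis) for each of the 15 probe sets (y axis), with 95% confidence intervals as bars, in POR-null liver in red and wild-type liver in blue. All points are open because 0 probe sets had a limma adjusted p at or under 0.05; Cyp7a1 lies between 0.30 and 0.56 and Baat 1419001_at lies on opposite sides of 0 in the genotypes.

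The genes around this pathway were counted one probe set per gene, the brightest, over all 12393 genes, of which 1.24% passed between the genotypes on the control diet, 2.49% on the quercetin diet and 7.94% averaged over both. Of 14 other enzymes of bile acid synthesis, 0 passed on the control diet and 1 on the quercetin diet and averaged over both. This was Acox2, the peroxisomal oxidase that shortens the side chain, with 10.87 ± 0.14 in POR-null quercetin and 10.49 ± 0.18 in POR-null control liver, against 10.30 ± 0.28 in wild-type quercetin and 9.92 ± 0.13 in wild-type control liver (SD, n = 3 each). Averaged over both diets it rose by 0.57 ± 0.10 (limma adjusted p = 0.00263), a call kept without any 1 of the 12 arrays, while the quercetin-diet call (0.57, limma adjusted p = 0.0387) was kept in 1 of 6 such fits, with adjusted p up to 0.182. The list's median difference was 0.08 on the control diet and -0.03 on the quercetin diet, against -0.02 and -0.03 for all genes. Cyp39a1, which hydroxylates 24-hydroxycholesterol, was at -0.93 ± 0.34 on the control diet (limma adjusted p = 0.193) and Hsd3b7, the next enzyme after Cyp7a1, at 0.42 ± 0.17 (adjusted p = 0.242).

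Of 14 measured regulators, 0 were higher and 1 was lower on the control diet, 0 passed on the quercetin diet, and averaged over both diets 3 were lower. Mafg, a small Maf protein that FXR induces and that represses Cyp8b1, had 7.99 ± 0.08 in POR-null quercetin and 7.99 ± 0.29 in POR-null control liver, against 8.43 ± 0.09 in wild-type quercetin and 8.60 ± 0.02 in wild-type control liver (SD, n = 3 each). It fell by 0.52 on the log2 scale averaged over both diets (SE 0.08, limma adjusted p = 0.00205), without exception when any 1 array was left out. Its control-diet call was kept in 2 of 6 such fits (limma adjusted p up to 0.148). Hnf4a, the hepatocyte nuclear receptor whose letters stand in the Cyp8b1 promoter shown above, fell by 0.31 (SE 0.07, limma adjusted p = 0.0167) averaged over both diets. Nr5a2, whose letters overlap those of Hnf4a there, was at -0.26 ± 0.07 averaged over both diets (limma adjusted p = 0.0327). This call was lost in 7 of the 12 fits that left out 1 array, with values from -0.29 to -0.23 and adjusted p up to 0.0896. Nr1d1, the clock repressor REV-ERBα, was at -0.35 ± 0.13 on the control diet (limma adjusted p = 0.195).

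FXR targets gave no common direction. Of 9 measured, 1 was higher and 1 lower on the control diet, 1 higher and 0 lower on the quercetin diet, and 2 higher and 1 lower averaged over both, with medians of 0.08, -0.08 and -0.05. Sdc1, the heparan sulfate proteoglycan syndecan-1, rose by 0.69 ± 0.09 averaged over both diets (limma adjusted p = 0.000676) and kept that call without any 1 array, while its calls on each single diet were kept in 2 of 6 such fits (adjusted p up to 0.0929 on the control diet and 0.104 on the quercetin diet). Abcb11, the canalicular bile salt export pump and a direct FXR target, was at -0.30 ± 0.15 on the control diet (limma adjusted p = 0.34) and -0.04 ± 0.15 on the quercetin diet (adjusted p = 0.927). Mafg, the lower one, is also counted among the regulators. Pltp, the other higher one averaged over both diets, is also counted among the LXR targets below.

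Of 5 measured transporters of the sinusoidal membrane, 1 was higher and 0 lower on the control diet, and 2 were higher and 1 lower on the quercetin diet and averaged over both. Slco1a4, which takes up bile acids and organic anions, had 9.23 ± 0.13 in POR-null quercetin and 8.84 ± 0.57 in POR-null control liver, against 7.33 ± 0.22 in wild-type quercetin and 7.66 ± 0.22 in wild-type control liver (SD, n = 3 each). It rose by 1.90 ± 0.21 on the quercetin diet (limma adjusted p = 0.000636) and by 1.54 ± 0.15 averaged over both diets (adjusted p = 7.79e-05). Slco1a1, a related transporter that like Cyp7b1 is stronger in male mouse liver, had 8.45 ± 0.79 in POR-null quercetin and 9.24 ± 0.41 in POR-null control liver, against 10.23 ± 0.12 in wild-type quercetin and 10.12 ± 0.13 in wild-type control liver. It fell by 1.33 averaged over both diets (SE 0.20, limma adjusted p = 0.0014). Abcc3, which exports conjugated bile acids to blood, rose by 0.57 ± 0.11 averaged over both diets (limma adjusted p = 0.00485). Each of these averages passed without any 1 array, as did Slco1a4 and Slco1a1 on the quercetin diet. The control-diet call of Slco1a4 was kept in 3 of 6 such fits (limma adjusted p up to 0.111) and the quercetin-diet call of Abcc3 in 1 of 6 (adjusted p up to 0.177). Slc10a1, the main sodium-dependent bile acid importer, was at 0.19 ± 0.09 on the control diet (limma adjusted p = 0.364) and 0.15 ± 0.09 on the quercetin diet (adjusted p = 0.467).

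Oxysterol receptor (LXR) targets were counted because mouse Cyp7a1 is itself an LXR target. Of 10 measured, 0 passed on the control diet, 3 were higher and 1 was lower on the quercetin diet, and 4 were higher and 1 was lower averaged over both, with a median of 0.26. The higher ones averaged over both diets were Scd1, the stearoyl-CoA desaturase, at 0.99 ± 0.15 (limma adjusted p = 0.00166), Lpl, lipoprotein lipase, at 0.74 ± 0.13 (adjusted p = 0.00399), Lpcat3, which remodels phospholipids, at 0.55 ± 0.08 (adjusted p = 0.00121), and Pltp, the phospholipid transfer protein, at 0.65 ± 0.16 (adjusted p = 0.0264). Pltp alone of these 4 lost this call in single-array omissions, and kept it in 7 of 12. The quercetin-diet calls were not all kept: Scd1 and Lpcat3 each kept theirs in 5 of 6 omissions, Lpl in 1 of 6 (limma adjusted p up to 0.126) and Abcg8 in 0 of 6 (adjusted p from 0.0631 to 0.115). Abcg8, the canalicular sterol exporter, was the lower one at -0.53 ± 0.09 (limma adjusted p = 0.00231). Of 12 measured genes of cholesterol synthesis and uptake, 0 passed on either diet or averaged over both. All 12 had estimates above 0 on the quercetin diet, against 43.7% of all genes, with a median of 0.78. On the control diet 6 of 12 did, against 46.1% of all genes, with a median of -0.04. The mean of this list by array was 8.25, 8.36 and 8.18 in POR-null quercetin arrays and 8.61, 8.20 and 7.59 in POR-null control arrays, against 6.92, 8.12 and 7.69 in wild-type quercetin arrays and 7.60, 8.54 and 8.51 in wild-type control arrays. The POR-null arrays lay above the wild-type arrays on the quercetin diet, by a small margin over 1 of them, and on the control diet the genotypes overlapped.

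**Figure D4:**
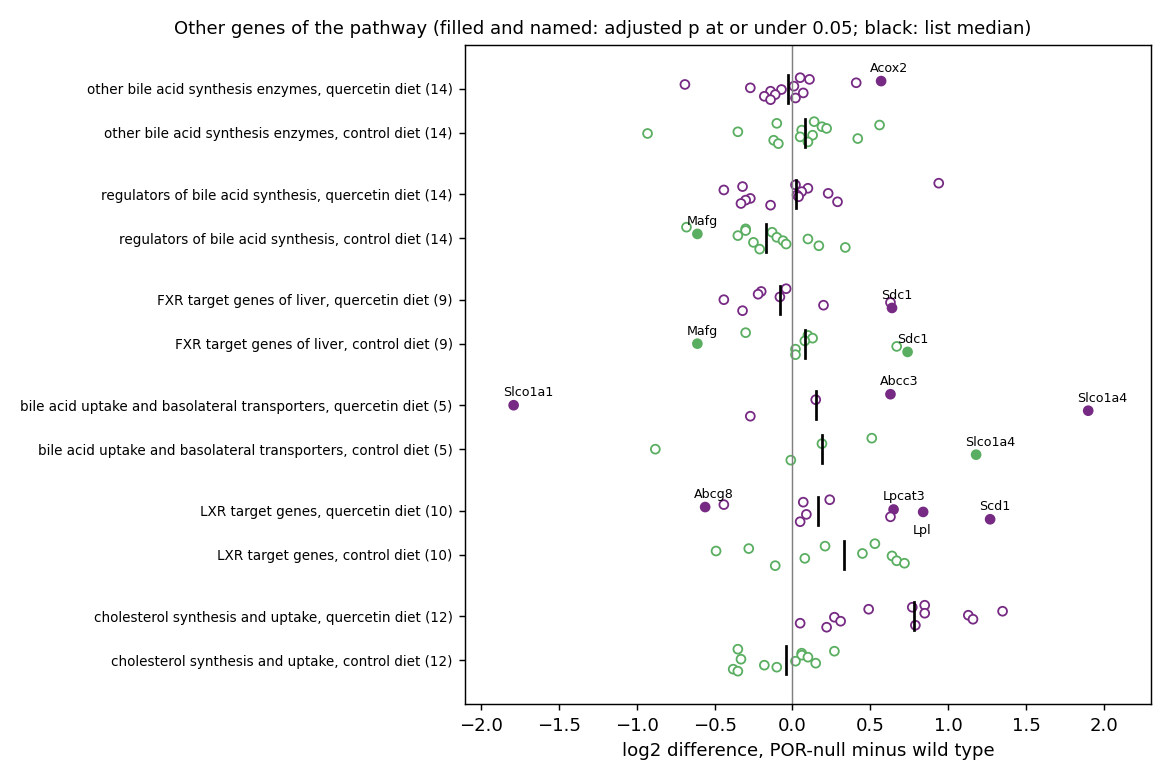
Log2 difference between POR-null and wild-type liver (x axis) of each measured gene in 6 lists around bile acid synthesis, on the quercetin diet in purple and the control diet in green, with list medians as black bars, list sizes in brackets and filled, named points for a limma adjusted p at or under 0.05. Slco1a4 at 1.90 and Slco1a1 at -1.79 on the quercetin diet lie farthest from 0, and the cholesterol list has a median of 0.78 on the quercetin diet and -0.04 on the control diet.

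Cyp7a1 follows a daily rhythm in mice, and the hour of killing is not in the labels. Of 14 measured clock genes, 0 passed on either diet and 1 was lower averaged over both, Per1 at -0.37 ± 0.09 (limma adjusted p = 0.0205), a call lost in 3 of 12 single-array omissions. Nr1d1 and Dbp are counted both here and among the regulators. All 14 had estimates under 0 on the control diet, with a median of -0.35, and 5 of 14 were above 0 on the quercetin diet, with a median of -0.14. Over all genes 46.1% were above 0 on the control diet and 43.7% on the quercetin diet. The mean of the clock genes was 6.60 to 6.70 in POR-null quercetin arrays and 6.59 to 6.88 in wild-type quercetin arrays. On the control diet it was 6.50, 6.74 and 6.65 in POR-null arrays and 6.75, 6.99 and 7.02 in wild-type arrays. Wild-type control array 1 thus lay close to POR-null control array 2. The higher wild-type control arrays were 2 and 3, which the second principal component also set apart. These means do not show the spread of single clock genes. Dbp ranged from 7.62 to 7.98 in POR-null quercetin arrays and from 5.89 to 8.43 in wild-type quercetin arrays. On the control diet Dbp ranged from 7.14 to 8.52 in POR-null arrays and from 7.74 to 8.96 in wild-type arrays. The part of the clock genes in the difference of Cyp7a1 was not tested. Macrophage and Kupffer cell markers also lay higher in POR-null liver, with 9 of 10 above 0 on the control diet (median 0.50) and 8 of 10 on the quercetin diet (median 0.32). Their mean level was 7.67 to 7.90 in POR-null quercetin arrays, 7.55 to 7.91 in POR-null control arrays, 7.27 to 8.04 in wild-type quercetin arrays and 7.07 to 7.55 in wild-type control arrays, and their part in the results was not tested. Of these 10, 1 passed on each diet, Mpeg1, at 0.91 ± 0.20 on the control diet (limma adjusted p = 0.048) and 0.88 ± 0.20 on the quercetin diet (adjusted p = 0.0359), each call kept in 2 of 6 single-array omissions. Of the averages over both diets 3 were higher and 0 lower: Mpeg1 at 0.90 ± 0.14 (limma adjusted p = 0.00207), kept in 12 of 12 omissions, Cd5l at 0.70 ± 0.19 (adjusted p = 0.0371), kept in 5, and C1qa at 0.39 ± 0.11 (adjusted p = 0.0451), kept in 2. Among all genes 1.24% passed on the control diet, 2.49% on the quercetin diet and 7.94% averaged over both. Of 9 hepatocyte markers 0 passed, with medians of -0.05 on the control diet and -0.09 on the quercetin diet.

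Genes whose pattern was most like that of Cyp7a1 and Cyp8b1 were sought among 7394 other genes with a mean above 5.95, by Pearson's r over the 12 arrays. For Cyp7a1 1422100_at the highest were Cyp2b10 (0.984), Oat (0.973), Aldh1a7 (0.967) and Prnp (0.962). For Cyp7a1 1438743_at they were Csrp3 (0.976), Dclre1a (0.970), S100a10 (0.970) and Prdx3 (0.969). For Cyp8b1 they were S100a10 (0.984), Timm8a1 (0.973), Nudcd2 (0.968) and Mfn2 (0.966). All of these were higher in POR-null liver on both diets, from 0.42 for Timm8a1 to 4.37 for Cyp2b10 on the log2 scale, and the arrays share the genotype groups that separate them. The probe sets of Cyp7a1 had none of these 4 neighbours in common.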

How the data were processed

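Total liver RNA from pools of 3 mice was measured on 12 arrays. The authors deposited log2 values, which range from 2.57 to 14.2; MAS5 and RMA are named, per the submitters' processing notes, without version or role, and the authors' background correction is not given in the sources used here. No further normalization was applied. Of 22690 probe sets, 64 controls were left out. Symbols came from the platform annotation: 20380 probe sets had 1 symbol, 691 several and 1555 none. Sample titles gave the groups.

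The tests used limma 3.58.1 (R 4.3.3): 1 mean per group over all 12 arrays, variances moderated with an intensity trend, two-sided tests, Benjamini-Hochberg adjustment over 22626 probe sets and a threshold of 0.05. The code was tested on simulated data. P-values reflect how pools of 3 mice varied, not single animals, and the number of arrays limits the precision. All member probe sets are described; of the pathway and clock lists, genes past the threshold in any contrast and up to 3 with the lowest control-diet p, each by its brightest probe set, plus Abcb11, Slc10a1 and, of the cell type markers, Mpeg1, Cd5l, C1qa and Sparc, chosen after their values were seen; and the 4 genes most like Cyp7a1 and Cyp8b1. The values of the clock gene Dbp were also added after they were seen. Members and lists were chosen with earlier results of these data known. The alternatives tried were quantile normalization, leaving out the dimmest 40% of probe sets, no intensity trend, a robust variance prior, only the groups compared, genes as the mean of their probe sets, a replicate block, leaving out wild-type control arrays 2 and 3, and leaving out each array. Figures were drawn with matplotlib 3.10.9.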

Additional observations from a re-analysis of the deposited data

How the results depend on the processing

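With 3 arrays per group, small differences are not detectable, and the level of dim probe sets such as 1427776_a_at is uncertain. Cyp7a1 kept its direction and its call on both diets under every alternative and every omission of 1 array: 1422100_at ranged from 2.15 to 2.61 on the control diet, 2.54 to 2.76 on the quercetin diet and 2.38 to 2.61 averaged over both, and 1438743_at from 1.87 to 2.56, 2.19 to 2.46 and 2.11 to 2.45. Omissions of 1 array gave Cyp8b1 0.95 to 1.42, 0.96 to 1.15 and 1.01 to 1.24, Nr0b2 -1.12 to -0.72, -1.57 to -1.15 and -1.24 to -1.01, Cyp7b1 1421075_s_at -1.13 to -0.38, -1.80 to -1.22 and -1.31 to -0.93, and Cyp7b1 1421074_at -0.82 to 0, -1.54 to -0.94 and -1.02 to -0.62, in the same order. The number of members called ranged over these omissions from 3 to 4 on the control diet, 3 to 6 on the quercetin diet and 5 to 7 averaged over both, and stayed 0 for quercetin and the interaction. Over all probe sets the count was 262 on the control diet (35 to 756 over omissions), 527 on the quercetin diet (127 to 389), 1714 averaged over both (991 to 2128), and 0 for quercetin in POR-null (0 to 4), quercetin in wild type (0 to 151) and the interaction (0 to 1).

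Fitting only the groups compared gave 30 calls on the control diet and 950 on the quercetin diet, Cyp8b1 1.18 with an adjusted p of 0.0727 on the control diet, and Cyp7b1 1421074_at -1.23 with an adjusted p of 0.0141 on the quercetin diet. Leaving out wild-type control arrays 2 and 3 gave 29 calls on the control diet, 757 averaged over both diets and 1 for quercetin in wild type, and Cyp8b1 1.37 on the control diet without a call; fewer arrays remain in that fit. Genes as the mean of their probe sets gave 110 calls on the control diet and 1061 averaged over both diets among fewer features, Cyp7b1 -1.36 on the quercetin diet (adjusted p 0.0587) and, averaged over both diets, -0.98 (0.0289). A robust variance prior gave Cyp7b1 1421075_s_at -1.48 on the quercetin diet with an adjusted p of 0.107. Averaged over both diets Cyp7b1 1421074_at passed after quantile normalization (-0.93, 0.0376) and without the dimmest 40% of probe sets (-0.84, 0.0481). Leaving out dim probe sets, or the intensity trend, gave 1 call for quercetin in wild type. The cause of these changes was not tested, except where the setting itself has fewer features or arrays. All adjusted p-values are from limma.

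The labels do not say that a replicate number is shared between groups, and the main fit left the arrays unpaired. Deviations of same-numbered arrays correlated from -0.18 to 0.24, over 0.1 in 5 of 18 pairs. Arrays with different numbers were not compared, so these values cannot decide whether the numbers pair the arrays. With the replicate number as a block, quercetin in wild type had 2 calls over all probe sets, Cyp7a1 gave 2.42 and 2.19 on the control diet, no member call changed, and Acox2 passed on the control diet (0.56, limma adjusted p = 0.0202). Under the block Mpeg1 (0.91, adjusted p = 0.0563) and Sparc (0.57, 0.0581) lost their control-diet calls and C1qa (0.39, 0.06) its call averaged over both diets.

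Signs turned for these differences, none of them called in the fit over all arrays; most were near 0 there, but Baat 1419001_at had been at 0.36 on the control diet and 0.53 for quercetin in wild type, Baat 1419002_s_at at 0.27 on the quercetin diet, Hsd3b7 at 0.42 and Stard4 at -0.35 on the control diet. Quantile normalization gave -0.03 for Cyp27a1 on the control diet, 0 and -0.01 for Nr1h4 on the quercetin diet and for quercetin in POR-null, and 0.01 for Fgfr4 1427776_a_at averaged over both diets. Without wild-type control arrays 2 and 3, the control-diet values were -0.12 for Cyp27a1, -0.19 for Baat 1419001_at, 0 for Fgfr4 1418596_at, 0.01 for Fgfr4 1427846_x_at, -0.02 for Hsd3b7, 0.16 for Stard4 and 0.21 for Nsdhl; averages over both diets were 0.07 for Fgfr4 1427776_a_at, -0.07 for Hsd3b7 and 0.19 for Stard4; quercetin in wild type gave -0.42 for Cyp7b1 1421074_at, -0.02 for Baat 1419001_at and 0.13 for Fgfr4 1427777_x_at; and the interaction gave 0.05 for Cyp27a1, -0.15 for Fgfr4 1427777_x_at and -0.01 for Fgfr4 1427845_at. Genes as the mean of their probe sets gave Baat -0.17 on the quercetin diet, 0.12 averaged over both diets and -0.17 for quercetin in POR-null, Cyp7b1 0.01 for quercetin in wild type, and Fgfr4 -0.02 on the control diet, 0 on the quercetin diet, -0.01 averaged over both, 0.01 and -0.01 for quercetin in POR-null and in wild type, and 0.02 for the interaction.

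Omissions of 1 array turned the sign of these differences, none of them called in the fit over all arrays. On the control diet the ranges were -0.01 to 0.14 for Fgfr4 1418596_at, -0.05 to 0.11 for Fgfr4 1427776_a_at, -0.06 to 0.09 for Fgfr4 1427777_x_at, -0.15 to 0.01 for Fgfr4 1427846_x_at and -0.11 to 0.59 for Dhcr7. On the quercetin diet they were -0.04 to 0.15 for Nr1h4, -0.09 to 0.05 for Fgfr4 1427776_a_at, -0.04 to 0.15 for Fgfr4 1427777_x_at, -0.28 to 0.35 for Cyp39a1, -0.03 to 0.15 for Nr1d1 and -0.25 to 0 for Clock. Averaged over both diets they were -0.03 to 0.04 for Cyp27a1, -0.22 to 0.02 for Baat 1419001_at, -0.04 to 0.04 for Fgfr4 1427776_a_at, -0.01 to 0.09 for Fgfr4 1427777_x_at, -0.19 to 0.02 for Stard4 and -0.04 to 0.14 for Nsdhl. For quercetin in POR-null liver they were -0.02 to 0.22 for Baat 1419002_s_at, -0.06 to 0.12 for Nr1h4, -0.10 to 0.05 for Fgfr4 1427776_a_at, -0.11 to 0.08 for Fgfr4 1427777_x_at and -0.13 to 0.11 for Fgfr4 1427845_at. For quercetin in wild-type liver they were -0.03 to 0.40 for Cyp7b1 1421074_at, -0.22 to 0.06 for Cyp7b1 1421075_s_at, -0.05 to 0.11 for Fgfr4 1427776_a_at, -0.13 to 0.02 for Fgfr4 1427777_x_at and -0.17 to 0.06 for Fgfr4 1427845_at. For the interaction they were -0.22 to 0.47 for Cyp7a1 1438743_at, -0.37 to 0.11 for Cyp8b1, -0.37 to 0.04 for Baat 1419002_s_at, -0.16 to 0.02 for Fgfr4 1427776_a_at, -0.07 to 0.12 for Fgfr4 1427777_x_at, -0.10 to 0.17 for Fgfr4 1427845_at and -0.12 to 0.03 for Fgfr4 1427846_x_at.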

Other observations

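Among markers of other cell types, 1 of 10 stellate cell and matrix genes passed on the control diet, Sparc, a matrix glycoprotein, at 0.57 ± 0.12 higher in POR-null liver (limma adjusted p = 0.045), a call kept in 1 of 6 single-array omissions, and 0 passed on the quercetin diet. With both diets averaged, Sparc again was the 1 that passed, at 0.39 (limma adjusted p = 0.0139), kept in 12 of 12 omissions. The share of all genes that passed was 1.24% on the control diet, 2.49% on the quercetin diet and 7.94% averaged over both. Of 9 endothelial, 8 intestinal and 9 exocrine pancreas genes 0 passed between the genotypes on either diet or averaged over both, and the pancreatic genes had a median of 1.00 on the quercetin diet and -0.06 on the control diet.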
